A study of Sus scrofa with 6 samples.

Results

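Small leucine-rich proteoglycans are secreted proteins with a curved leucine-rich repeat domain that sits on collagen fibrils and sets how the fibrils assemble. Most carry chondroitin, dermatan or keratan sulphate chains, which are built in the Golgi. Versican and perlecan are far larger proteins of other families. Versican fills the space between cells together with hyaluronan, and perlecan is a heparan sulphate proteoglycan of basement membranes. Fibroblasts are a main source of these proteins in skin and other connective tissue.

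The genes were chosen by name from the expression table of porcine embryonic fibroblasts (PEF) and porcine induced pluripotent stem cells (piPSC). They were BGN, DCN, LUM, FMOD, OGN, ASPN, PRELP, VCAN, HSPG2 and PODN, and 9 of the 10 had a row among 18007 genes. No row was named PODN, which encodes podocan, a leucine-rich repeat protein of the matrix. The identifier that the gene name table pairs with it (ENSSSCG00000027114) was listed as SCP2, at chr6:159155253-159314985. That interval covers both PODN and SCP2 in the RefSeq annotation of Sscrofa11.1, so the level of PODN could not be read, and the 9 other genes are described.

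The PEFs were grown from the tip of the ear of embryos taken at embryonic day 90 from a Meishan sow mated with a boar labelled Longwhite, which the study's methods name as Large White. PEF5, PEF7 and PEF8 are 3 lines of such cells, and piPSC5, piPSC7 and piPSC8 were derived from them with lentiviral Oct4, Sox2, Klf4 and cMyc under a doxycycline-responsive promoter and a transactivator. The piPSCs were picked as colonies and grown on mouse feeder fibroblasts, whereas the PEFs were not reprogrammed. Each line gave 1 poly-A RNA library, so p-values measure the spread between lines. Mouse fragments cannot be told apart from porcine ones in values per gene.

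The 6 libraries held between 11010629 and 17836510 fragments, and FPKM (fragments per kilobase of gene length, scaled to the library's total) was the deposited unit. Of 8 listed pluripotency genes, 6 were in the table, and LIN28A and POU5F1 were not. Among the 6, 4 genes (NANOG, SALL4, EPCAM and CDH1) did not exceed 0.113 FPKM in any piPSC library. SOX2 was at 3.01, 2.49 and 0.129 FPKM and LIN28B at 2.51, 0.281 and 8.90 FPKM in piPSC5, piPSC7 and piPSC8. In PEFs SOX2 did not exceed 0.0208 FPKM and LIN28B 0.0367 FPKM, and for both genes every piPSC library was above every PEF library. Neither passed the limma test against PEFs (log2 fold changes 1.31 and 1.80, adjusted p = 0.0626 and 0.0667). All 6 listed fibroblast markers were detected in PEFs and were lower in piPSCs, and COL3A1 still stood between 94.2 and 125 FPKM there. The lines are described as male, but the Y-linked DDX3Y had 0 fragments in both libraries of lines 5 and 7 against 3439 in PEF8 and 4207 in piPSC8. Lines 5 and 7 thus went against that description and line 8 did not, and results were also computed without line 8.

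To show the sequence just upstream of these genes, the 250 bases before the RefSeq start are given for 3 of them, read from the Sscrofa11.1 genome 5′ to 3′ on the strand of the gene. PRELP was the member whose level differed most between PEF lines, OGN was the gene that was not called lower in piPSCs, and HSPG2 was the gene with the highest median level there. Capitals mark the letters GGAATG (read on either strand), the core bound by TEAD factors. The intervals are chr9:64190728-64190977 on the plus strand for PRELP, chr3:42135941-42136190 on the minus strand for OGN and chr6:79958284-79958533 on the minus strand for HSPG2.
PRELP: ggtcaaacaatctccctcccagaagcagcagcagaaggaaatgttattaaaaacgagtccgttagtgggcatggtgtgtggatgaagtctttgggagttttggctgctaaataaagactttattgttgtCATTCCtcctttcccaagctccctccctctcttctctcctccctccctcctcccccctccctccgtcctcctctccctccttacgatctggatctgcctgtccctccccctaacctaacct
OGN: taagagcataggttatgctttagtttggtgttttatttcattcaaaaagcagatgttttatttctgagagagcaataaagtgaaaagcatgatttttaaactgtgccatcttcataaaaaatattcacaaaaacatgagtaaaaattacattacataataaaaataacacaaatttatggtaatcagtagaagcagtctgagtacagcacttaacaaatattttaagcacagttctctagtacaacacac
HSPG2: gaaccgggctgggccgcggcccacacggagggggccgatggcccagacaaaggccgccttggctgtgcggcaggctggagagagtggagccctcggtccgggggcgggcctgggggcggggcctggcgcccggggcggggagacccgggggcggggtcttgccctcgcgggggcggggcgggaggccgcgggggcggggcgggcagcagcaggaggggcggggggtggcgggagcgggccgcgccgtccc

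The windows differed in base composition. GC content was 51.6% upstream of PRELP, 28.4% upstream of OGN and 83.2% upstream of HSPG2, against a median of 57.6% over the windows of 19556 protein-coding genes. Of CG dinucleotides, the HSPG2 window held 30 and the OGN window 0, against a median of 12. The windows of ASPN, BGN, FMOD, LUM and VCAN lay between 23.6% GC (VCAN) and 67.2% GC (BGN). Motifs bound by AP-1 (TGANTCA) and RUNX (TGTGGT) factors were found in 0 of these 8 windows, against 5.27% and 14.0% of all windows. Of the 8, the PRELP window held GGAATG, 121 bases before the start, against 10.3% of all windows. The window of PODN, whose level could not be read, was not counted among the 8, and it had 69.6% GC and held GGAATG 138 bases before the start. The letters TATAAA of a TATA box, like the other motifs read on either strand, occurred in 2 of 8, against 9.77% of all windows. They lay 150 and 100 bases before the start of VCAN and 237 bases before that of ASPN. The VCAN site at 100 bases and the ASPN site were on the strand opposite to the gene. The RefSeq start lay 4 bases from that of the deposited table for PRELP, 88 for OGN, 91 for ASPN, 253 for FMOD and 377 for LUM. It lay 31710 bases away for BGN, 37186 for HSPG2 and 394246 for VCAN. A window may thus not be the one used in these cells.

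To ask how the expression of matrix proteoglycans differed after reprogramming, piPSCs were compared with PEFs. Colony picking and growth on feeders went along with reprogramming, so their parts in a difference cannot be told apart. A gene was called where limma gave a Benjamini-Hochberg adjusted p below 0.05 over 12428 genes and the change was 2-fold or more. Of the 9 genes, 8 were called lower in piPSCs and 0 higher. Of all genes tested, 36.8% were called, 16.7% as lower and 20.2% as higher. The median log2 fold change of the 9 genes was -5.25, against 0.20 over all genes tested. Rescaling the libraries to the median ratio moved the latter to -0.01 and turned the split of calls from 45.2% lower to 57.2% lower, and rescaling to an equal sum gave 58.6%. In 8 of 9 genes all 3 PEF libraries were above all 3 piPSC libraries, as in 26.8% of all genes tested, and in 0 genes the reverse held, as in 37.3% of all. Fewer cells that express a gene and less RNA of it per cell cannot be told apart in such libraries.

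Within lines, 8 of the 9 genes were at least 2-fold lower in piPSC5 than in PEF5, where 18.6% of all genes tested were. In line 7 this held for 7 genes, against 17.2% of all, and in line 8 for 8 genes, against 23.8%. The exception in line 7 beside OGN was VCAN.

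**Figure D1:**
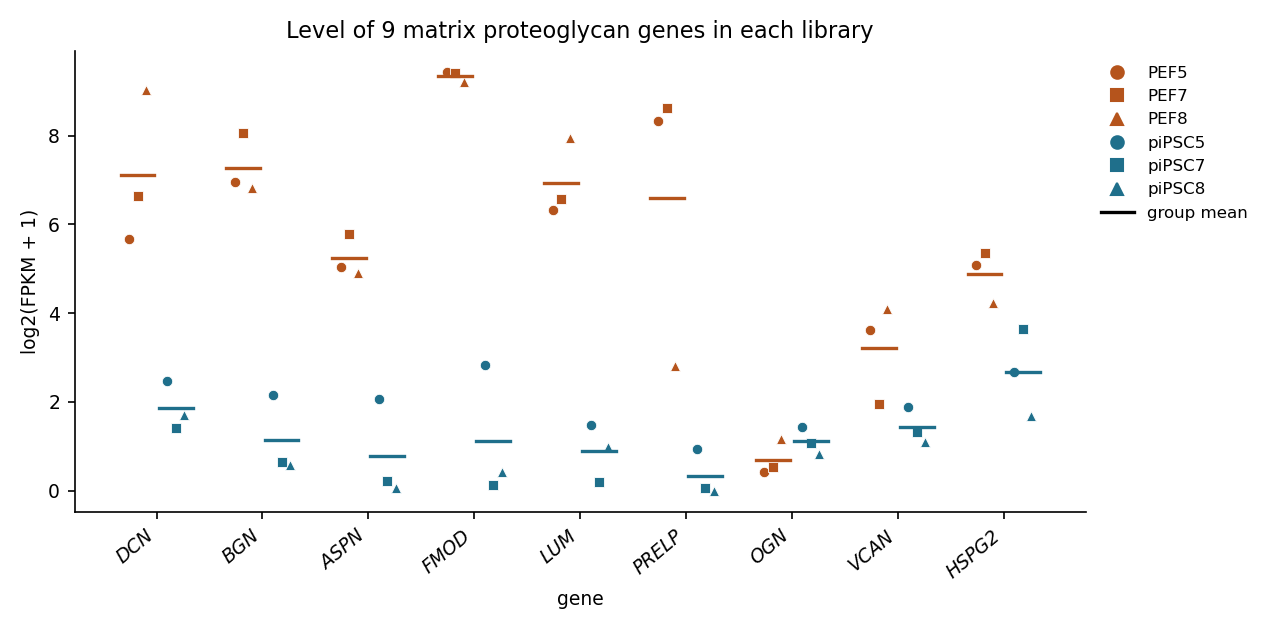
Level of each gene as log2(FPKM + 1) on the vertical axis in PEF5, PEF7 and PEF8 (orange) and in piPSC5, piPSC7 and piPSC8 (blue), with circles for line 5, squares for line 7, triangles for line 8 and lines for group means. All PEF points lie above all piPSC points in 8 of 9 genes, and the OGN points overlap.

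Class I of the family was represented by decorin, biglycan and asporin. Decorin (DCN, ENSSSCG00000000915, chr5:91678608-91713925) binds collagen fibrils and growth factors such as TGF-beta. PEF5, PEF7 and PEF8 held DCN at 50.2, 98.8 and 519 FPKM, against 4.58, 1.65 and 2.27 FPKM in piPSC5, piPSC7 and piPSC8. PEF8 stood 10.3-fold above PEF5, and even the lowest PEF library was far above every piPSC library. The log2 fold change of (FPKM + 1) was -5.25 (SE 0.82, adjusted p = 0.00284), and it was -4.29 without PEF8 (adjusted p = 0.00243).

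Biglycan (BGN, ENSSSCG00000012766, chrX:124250338-124296636) is the X-linked relative of decorin, carries chondroitin or dermatan sulphate and can act as a danger signal when released from the matrix. BGN was at 123, 266 and 111 FPKM in PEF5, PEF7 and PEF8, and at 3.43, 0.574 and 0.498 FPKM in piPSC5, piPSC7 and piPSC8. PEF7 was the highest library, and PEF5 and PEF8 were close to each other. BGN had a log2 fold change of -6.15 (SE 0.52, adjusted p = 0.000414). HAUS7, which overlaps BGN on the opposite strand over 7831 bases, had a log2 fold change of 0.02 (adjusted p = 0.954).

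Asporin (ASPN, ENSSSCG00000008072, chr3:42163141-42192993) lacks a glycosaminoglycan chain and competes with decorin for collagen. ASPN was at 32.0 FPKM in PEF5, 53.7 in PEF7 and 28.7 in PEF8. In piPSC5 it was at 3.15 FPKM, but in piPSC7 and piPSC8 it was at 0.161 and 0.0348, from 10 and 2 fragments. The groups were apart, and piPSC5 stood clear of the other piPSC libraries. ASPN had a log2 fold change of -4.46 (SE 0.56, adjusted p = 0.00130), and -5.10 without piPSC5. The first 10460 bases on the minus strand overlap ECM2, a gene of the same strand that averaged 1.29 FPKM in PEFs.

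Class II was represented by fibromodulin, lumican and PRELP. Fibromodulin (FMOD, ENSSSCG00000015270, chr9:64059853-64074106) carries keratan sulphate and regulates the width of fibrils. FMOD was the most abundant of the 9 genes in each PEF library, at 693, 677 and 587 FPKM in PEF5, PEF7 and PEF8. It was at 6.08 FPKM in piPSC5, at 0.0893 in piPSC7 (95% Poisson interval 0.0359 to 0.184, counting error only) and at 0.344 in piPSC8. The PEF libraries were close to each other, whereas those of piPSCs were not. With a log2 fold change of -8.22 (SE 0.68, adjusted p = 0.000382), FMOD had the largest decrease of the 9 genes over all 6 libraries at a pseudocount of 1. That of PRELP was larger with voom (-9.99 against -9.92), without both libraries of line 8 (-7.97 against -7.95) and within line 5 (-7.39 against -6.62). Without piPSC5 the FMOD value was -9.07 (adjusted p = 0.000143). FMOD in piPSC7 and piPSC8 was at 0.0132% and 0.0587% of its level in PEF7 and PEF8, and in piPSC5 at 0.877% of that in PEF5.

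Lumican (LUM, ENSSSCG00000000916, chr5:91748494-91760563) is a keratan sulphate proteoglycan best known for the order of fibrils in the cornea. LUM was at 78.8, 93.6 and 245 FPKM in PEF5, PEF7 and PEF8, and at 1.78, 0.142 and 0.978 FPKM in piPSC5, piPSC7 and piPSC8. As for its neighbour DCN, PEF8 was the highest library. LUM had a log2 fold change of -6.06 (SE 0.51, adjusted p = 0.000405).

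PRELP (ENSSSCG00000015271, chr9:64190982-64207001) encodes a protein with a heparin-binding end that links basement membranes to the collagen beneath and is abundant in cartilage. PRELP was at 321 FPKM in PEF5 and 394 in PEF7, from 22192 and 25521 fragments, but at 5.98 FPKM in PEF8, from 351 fragments. In piPSC5 it was at 0.925 FPKM and in piPSC7 at 0.0434, and in piPSC8 it had 0 fragments, which allows up to 0.0703 FPKM at 3 fragments. PEF7 was 65.9-fold above PEF8, and PEF8 was still above each piPSC library. The log2 fold change was -6.25 with the largest error of the 9 genes (SE 1.50, adjusted p = 0.0136). It was -8.14 without PEF8 (adjusted p = 0.00100), -5.38 without PEF5 and -5.23 without PEF7. With limma's voom on the recovered fragments the call was lost (log2 fold change -9.99, adjusted p = 0.147).

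PRELP was the member at least 5-fold lower in (FPKM + 1) in PEF8 than in both other PEF libraries, as were 0.249% of genes tested. DCN was the member at least 5-fold higher in PEF8 than in both others, as were 0.7% of genes tested. In cartilage, where PRELP is abundant, SOX9 drives chondrocyte genes. SOX9 was at 2.15, 4.50 and 0.501 FPKM in PEF5, PEF7 and PEF8, and COMP, a cartilage and tendon matrix protein, at 0.839, 7.88 and 0.291 FPKM. In piPSCs SOX9 was lower (log2 fold change -1.51, adjusted p = 0.0342), and COMP was at 0 in all 3 libraries but did not pass the test (adjusted p = 0.118). The summed level of the 8 listed chondrocyte markers was 3.17, 12.5 and 1.17 FPKM in the 3 PEF libraries and 0.838, 4.4 and 0.571 FPKM in the piPSC libraries. The defining COL2A1, COL11A2, COL9A1, MATN1 and CNMD did not exceed 0.215 FPKM in any library. MATN3 went the other way, at 0, 0.0410 and 0.271 FPKM in PEFs and 0.50, 4.2 and 0.311 FPKM in piPSCs, and did not pass the test (adjusted p = 0.166). The part of such cells in the PRELP values was not tested.

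Osteoglycin (OGN, ENSSSCG00000034607, chr3:42116436-42135852), of class III, is a small keratan sulphate proteoglycan first found in bone. OGN was the member that was not called lower in piPSCs. It was at 0.332 FPKM in PEF5, 0.442 in PEF7 and 1.23 in PEF8, from 20, 25 and 63 fragments. In piPSC5, piPSC7 and piPSC8 it was at 1.71, 1.12 and 0.779 FPKM, from 87, 45 and 29 fragments. The groups overlapped, since PEF8 was above piPSC7 and piPSC8. The log2 fold change was 0.42 (SE 0.30, adjusted p = 0.277). Without both libraries of line 8 it was 0.79 (adjusted p = 0.0508), and without PEF8 it was 0.65 (adjusted p = 0.0958). Over the 15 alternatives computed for OGN it ran from 0.26 to 1.07, and none gave a call. Within lines, OGN was at 516% of its PEF level in line 5 and 253% in line 7, and at 63.3% in line 8.

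Of the large proteoglycans, versican (VCAN, ENSSSCG00000014136, chr2:91287931-91811674) carries many chondroitin sulphate chains and binds hyaluronan. VCAN was at 11.2, 2.85 and 16.1 FPKM in PEF5, PEF7 and PEF8, and at 2.71, 1.48 and 1.13 FPKM in piPSC5, piPSC7 and piPSC8. The groups did not overlap, but PEF7 was only just above piPSC5. For VCAN the log2 fold change was -1.79 (SE 0.56, adjusted p = 0.0360). This call depended on single libraries. It was lost when PEF5, PEF8, piPSC5, piPSC7 or piPSC8 was left out (adjusted p = 0.0577 to 0.110), when both libraries of line 8 were left out (log2 fold change -1.18, adjusted p = 0.184), without a filter on low values (adjusted p = 0.0665) and with voom (adjusted p = 0.0524), and it was -2.42 without PEF7. An unnamed gene on the opposite strand (ENSSSCG00000040801) shares 34391 bases with VCAN and averaged 15.3 FPKM in PEFs and 18.8 in piPSCs.

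Perlecan (HSPG2, ENSSSCG00000003514, chr6:79850757-79921097) was at 32.8, 39.7 and 17.8 FPKM in PEF5, PEF7 and PEF8, and at 5.34, 11.4 and 2.21 FPKM in piPSC5, piPSC7 and piPSC8. The groups were apart, and in both of them line 7 was highest and line 8 lowest. The log2 fold change was -2.23 (SE 0.53, adjusted p = 0.0131). HSPG2 kept 16.3%, 28.8% and 12.4% of its PEF level in lines 5, 7 and 8, whereas FMOD, LUM and BGN kept less than 3% in each line.

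**Figure D2:**
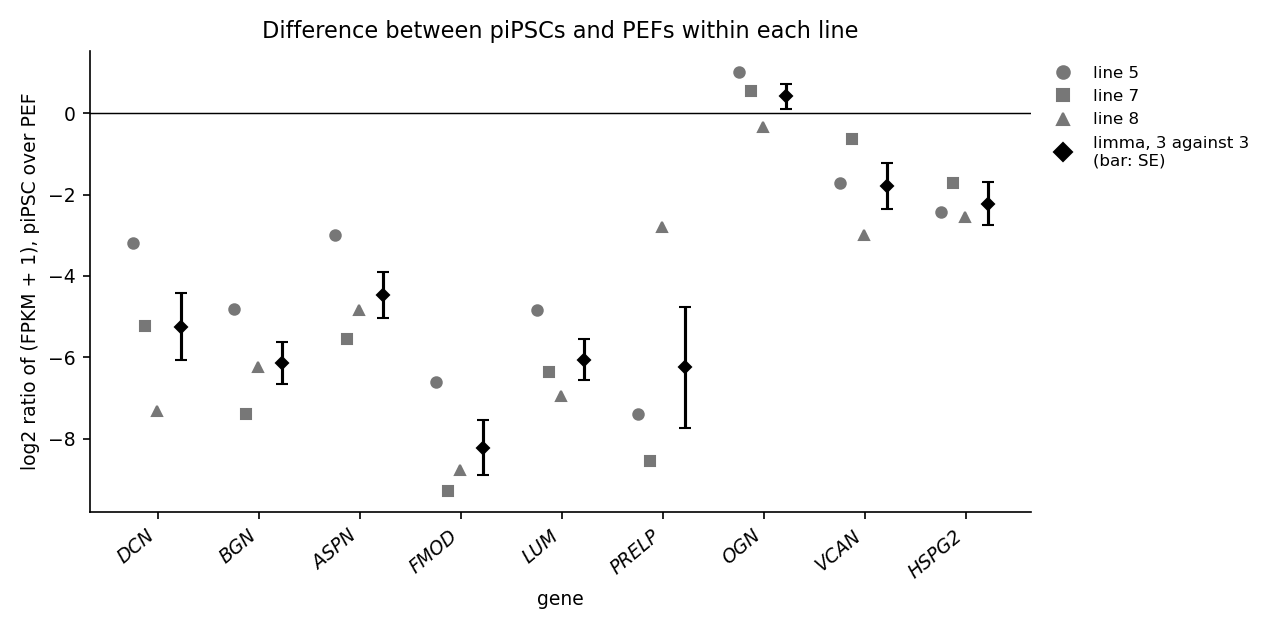
Log2 ratio of (FPKM + 1) in the piPSC library over that in the PEF library of the same line (grey circles, squares and triangles for lines 5, 7 and 8) and the limma log2 fold change with its SE (black diamonds and bars). FMOD lies lowest at -8.22, PRELP of line 8 stands apart at -2.80, and OGN has 1 line below 0 and 2 above.

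The order of the genes by level differed between the groups. In PEFs the order by median FPKM was FMOD, PRELP, BGN, DCN, LUM, HSPG2, ASPN, VCAN and OGN. FMOD was above PRELP, LUM above HSPG2, ASPN above VCAN and VCAN above OGN in all 3 libraries without overlap, and the other neighbours in the order overlapped in their ranges. In piPSCs HSPG2 came first by median, with DCN, VCAN, OGN, LUM, BGN, FMOD, ASPN and PRELP after it, and all neighbours overlapped. In single libraries HSPG2 led in piPSC7, FMOD in piPSC5 and DCN in piPSC8. FPKM depends on the gene length used, and the lengths behind the deposited values were inferred from those values. They were longer than the RefSeq exons for BGN (7471 against 2407 bases), LUM (6498 against 1939), FMOD (6593 against 3198) and ASPN (5213 against 2791). For values on RefSeq lengths, the same fragments were divided by the RefSeq exon length. Fragments outside those exons were kept, so these values are not a new count over RefSeq genes. The order on this scale may thus be off. On RefSeq lengths FMOD stayed first in PEFs and OGN last, with BGN second and ASPN above HSPG2. HSPG2 stayed first by median in piPSCs, although LUM led in piPSC8 and FMOD in piPSC5. The ratio of FPKM between libraries does not depend on the length.

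Summed over the 9 genes, the level was 1342, 1625 and 1532 FPKM in PEF5, PEF7 and PEF8, and 29.7, 16.7 and 8.25 FPKM in piPSC5, piPSC7 and piPSC8. PEF libraries were thus close in total even though DCN and PRELP differed between them. The sum was 0.435% ± 0.0345 (SD, n = 3) of all FPKM in PEFs and 0.00426% ± 0.00261 (SD, n = 3) in piPSCs. FMOD gave 51.6%, 41.6% and 38.3% of the sum in PEF5, PEF7 and PEF8. PRELP gave 23.9% and 24.2% in PEF5 and PEF7 but 0.390% in PEF8, where DCN gave 33.9%. Versican and perlecan together made up 3.28%, 2.62% and 2.21% of the sum in the PEF libraries and 27.1%, 77.4% and 40.5% in the piPSC libraries, without overlap. In piPSC7 HSPG2 alone gave 68.5%. On RefSeq lengths FMOD still gave the most in each PEF library, whereas PRELP gave 12.6% and 12.4% in PEF5 and PEF7, and in PEF8 LUM (27.4%) came before DCN (17.3%). Versican and perlecan then gave 1.69%, 1.22% and 1.21% in PEFs and 16.2%, 68.3% and 28.1% in piPSCs.

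**Figure D3:**
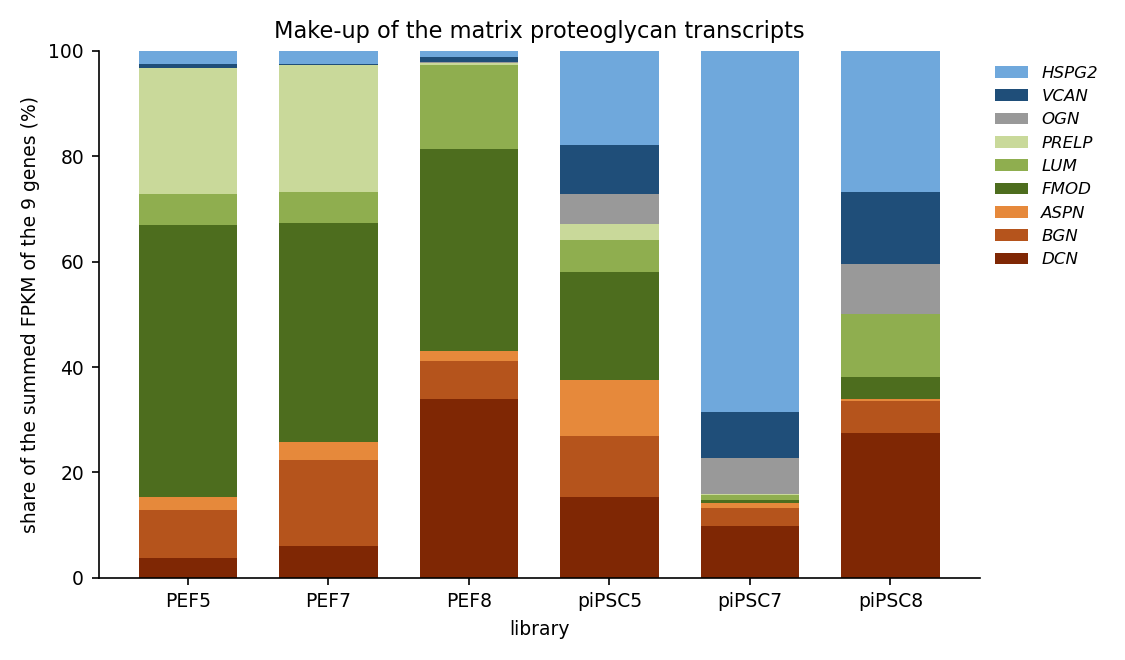
Share of each gene in the summed FPKM of the 9 genes (percent, vertical axis) in each of the 6 libraries. FMOD is the largest block in each PEF library, at 38.3% to 51.6%, and HSPG2 in piPSC7, at 68.5%.

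Among the piPSC libraries piPSC5 was highest for 8 of the 9 genes, all but HSPG2, as it was for 34.3% of all genes tested. FMOD, BGN and ASPN were at least 2-fold higher in (FPKM + 1) in piPSC5 than in both others, as were 1.63% of genes tested. Of 6 fibroblast markers, 5 were also highest in piPSC5. COL3A1 went the other way, at 94.2 FPKM in piPSC5 against 109 in piPSC7 and 125 in piPSC8. COL1A1 was at 58.4 FPKM in piPSC5, 4.01 in piPSC7 and 2.27 in piPSC8, and THY1 at 4.47, 1.24 and 0.385 FPKM. Over the 6 markers the sum was 209, 126 and 134 FPKM in piPSC5, piPSC7 and piPSC8, against 4165 to 5895 in the PEF libraries. The part of remaining fibroblasts or feeder cells in these values was not tested.

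Of the markers of other cell types, CNN1, ACTA2, CD14 and SOX9 were lower in piPSCs as most of the proteoglycans were, and their part in the result was not tested. CNN1 and ACTA2, contractile genes of smooth muscle that cultured fibroblasts also use, were at 8.59 to 75.1 and 26.4 to 92.8 FPKM in PEFs (log2 fold changes -4.43 and -4.15, adjusted p = 0.00363 and 0.00344), whereas RGS5 and MYH11 did not exceed 0.602 FPKM. The macrophage marker CD14 was at 9.20 to 21.9 FPKM in PEFs (log2 fold change -3.64, adjusted p = 0.000435), whereas AIF1 and CSF1R did not exceed 0.313 FPKM. CD68 was at 0.786 to 2.29 FPKM in PEFs and 0.804 to 2.71 in piPSCs (log2 fold change 0.23, adjusted p = 0.620). Of 4 keratinocyte markers KRT10 was highest at 5.24 FPKM in piPSC7, and KRT5, KRT14 and TP63 did not exceed 0.483 FPKM in PEFs. KRT14 reached 3.04 FPKM and KRT5 0.806 FPKM in piPSC7, and TP63 was at 0 in all piPSC libraries. Of 5 endothelial markers PECAM1 was highest, at 2.57 FPKM in PEF8, and of 3 muscle markers DES, at 14.2 FPKM in piPSC7.

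Of the 9 genes, 6 lie in 3 clusters of leucine-rich proteoglycan genes, and the members of a cluster did not share 1 level. On chromosome 5, DCN and LUM lie on the same strand with 34568 bases between them, followed by KERA and EPYC, which encode keratocan of the cornea and epiphycan of cartilage. KERA and EPYC did not exceed 0.109 FPKM in any library, whereas DCN and LUM were high in PEFs. On chromosome 9, FMOD and PRELP lie on opposite strands with 116875 bases between them, and OPTC, which encodes opticin of the eye, follows PRELP after 4475 bases. OPTC did not exceed 0.611 FPKM. On chromosome 3, OGN, OMD, ASPN and ECM2 are in a row on the minus strand. ASPN was at 28.7 FPKM or more in PEFs, but its neighbour OMD, which encodes osteomodulin of bone, was at 0.499, 2.98 and 0.536 FPKM in PEF5, PEF7 and PEF8 and at 0.774, 0.0645 and 0.0975 in the piPSC libraries. OMD (log2 fold change -0.71, adjusted p = 0.223) and ECM2 (-0.59, adjusted p = 0.264) did not pass the test.

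**Figure D4:**
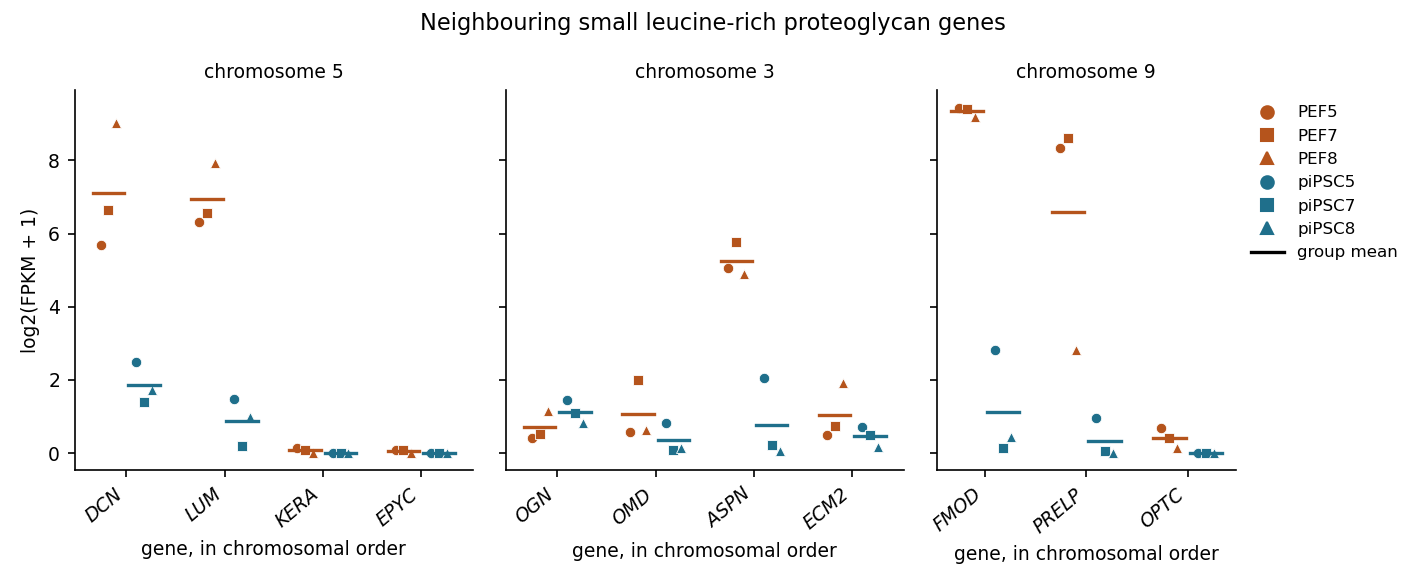
Level as log2(FPKM + 1) of neighbouring genes in their chromosomal order on chromosomes 5, 3 and 9 (spacing not to scale), with the symbols of the plot of levels by library. DCN, LUM, ASPN, FMOD and PRELP are high in PEFs, while KERA, EPYC and OPTC are near 0 beside them.

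Of 10 other small leucine-rich proteoglycan genes, 6 passed the filter on low values, and of these 3 were lower in piPSCs and 0 higher, with a median log2 fold change of -0.88. For this list and those that follow, the shares over all genes tested were 16.7% lower and 20.2% higher. Tsukushi (TSKU), a secreted inhibitor of several growth factor pathways, was at 118, 148 and 171 FPKM in PEF5, PEF7 and PEF8 and at 29.0, 27.6 and 22.9 FPKM in the piPSC libraries. Its log2 fold change was -2.40 (adjusted p = 0.000332), so that it was at a higher level in each piPSC library than any of the 9 genes. Chondroadherin (CHAD), which binds cells to cartilage collagen, had a log2 fold change of -1.41 (adjusted p = 0.0179) and PODNL1, which is related to podocan, of -1.04 (adjusted p = 0.0423). The call of PODNL1 was lost in 8 of 15 alternatives, among them the line as a block (adjusted p = 0.0623).

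Of 11 tested genes for other matrix proteoglycans and link proteins, 7 were lower and 0 higher (median log2 fold change -2.10). The basement membrane collagen COL15A1, which carries chondroitin sulphate, was at 121, 75.8 and 29.7 FPKM in PEF5, PEF7 and PEF8 and at 5.63, 0.262 and 0.551 FPKM in the piPSC libraries, with a log2 fold change of -4.81 (adjusted p = 0.00285). HAPLN4, a link protein that ties proteoglycans to hyaluronan, had a log2 fold change of -4.99 (adjusted p = 0.000246). ESM1, the endothelial proteoglycan endocan, had a log2 fold change of -2.84 (adjusted p = 0.00958), and the testican SPOCK3 of -2.72 (adjusted p = 0.0159). Aggrecan, brevican and neurocan, the relatives of versican (ACAN, BCAN and NCAN), did not exceed 0.445 FPKM in any library. HAPLN1, a link protein that steadies the bond of versican to hyaluronan, was at 30.8 FPKM in piPSC5 and 5.22 in piPSC8 but below 1 in the 4 other libraries, and it did not pass the test (adjusted p = 0.0860).

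Cell surface proteoglycans fell in 9 of 12 tested genes, with 0 higher (median log2 fold change -2.59). CD44, the hyaluronan receptor that can carry glycosaminoglycans, was at 97.8 to 105 FPKM in PEFs and 1.18 to 1.79 in piPSCs, with a log2 fold change of -5.37 (adjusted p = 6.7e-05). The syndecans SDC2 and SDC4, transmembrane heparan sulphate proteoglycans, had log2 fold changes of -4.59 (adjusted p = 0.000877) and -4.47 (adjusted p = 0.000104). Glypican GPC1, which is bound to the membrane by a lipid anchor, had one of -3.77 (adjusted p = 0.00106). SDC1, the syndecan of epithelia, was at 14.9 to 15.5 FPKM in PEFs and 6.01 to 15.4 in piPSCs (log2 fold change -0.47, adjusted p = 0.254).

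The enzymes that build the chains were grouped by the chain. Of 7 enzymes of the linkage tetrasaccharide, which joins the chains to the core protein, 1 was lower, the xylosyltransferase XYLT1 (log2 fold change -1.12, adjusted p = 0.00699), and the median was -0.61. Of 16 listed chondroitin and dermatan sulphate enzymes 14 were tested. Among these, 12 were lower and 0 higher (median -1.75), and in all 14 the PEF libraries were above the piPSC libraries. DSE, the epimerase that turns chondroitin into dermatan sulphate, was at 46.0, 38.4 and 61.5 FPKM in PEF5, PEF7 and PEF8 and at 1.26, 0.604 and 1.78 FPKM in the piPSC libraries (log2 fold change -4.50, adjusted p = 0.000181). CSGALNACT1, which starts the chondroitin chain, had a log2 fold change of -3.62 (adjusted p = 0.000217), and the sulphotransferases CHST15 and CHST12 had values of -2.88 (adjusted p = 0.000416) and -2.74 (adjusted p = 0.000804).

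Of 20 listed heparan sulphate enzymes 12 were tested, and 4 of the 12 were lower and 0 higher, with a median log2 fold change of -0.28. SULF1 and SULF2, which remove sulphate from finished chains outside the cell, had log2 fold changes of -3.27 (adjusted p = 0.00666) and -3.00 (adjusted p = 0.00735), and EXTL2 and the polymerase subunit EXT1 were lower as well (-1.88, adjusted p = 0.00855, and -1.22, adjusted p = 0.00349). The other 8 tested enzymes did not reach both thresholds. Of 7 listed keratan sulphate enzymes 4 were tested, and 3 of the 4 were lower (median -1.93). These were the sulphotransferase CHST2 (-4.57, adjusted p = 0.000729) and the galactosyltransferases B4GALT4 (-2.85, adjusted p = 0.00179) and B4GALT1 (-1.02, adjusted p = 0.00402). Differences between these lists were not tested.

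Of 10 listed genes for sulphate and sugar precursors 8 were tested, and 3 of the 8 were lower (median -0.48). PAPSS2, which makes the sulphate donor, was at 40.6 to 49.0 FPKM in PEFs and 1.07 to 2.57 in piPSCs (log2 fold change -4.12, adjusted p = 0.000176), whereas its relative PAPSS1 was at 55.3 to 59.8 and 35.0 to 40.3 FPKM (-0.63, adjusted p = 0.00838) and did not reach a 2-fold change. UGP2 and UXS1, of the UDP-sugar pathway, were lower, with log2 fold changes of -2.24 (adjusted p = 0.00109) and -1.03 (adjusted p = 0.00402). Of 11 listed hyaluronan genes 6 were tested, and 1 of the 6 was lower and 1 higher (median -0.98). CEMIP, which depolymerises hyaluronan, was at 21.7, 38.1 and 141 FPKM in PEF5, PEF7 and PEF8 and below 1 in piPSCs (log2 fold change -5.51, adjusted p = 0.000984). HMMR, a hyaluronan-binding protein that is also a mitotic spindle protein, was higher in piPSCs (log2 fold change 2.13, adjusted p = 0.00899).

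Of 9 tested genes for proteases that cleave proteoglycans, 6 were lower and 1 was higher, with a median log2 fold change of -3.66. The gelatinase gene MMP2 was at 1425, 2284 and 1245 FPKM in PEF5, PEF7 and PEF8 and at 38.1, 15.7 and 1.02 FPKM in the piPSC libraries, with a log2 fold change of -7.18 (adjusted p = 0.00197). Log2 fold changes were -7.80 for stromelysin MMP3 (adjusted p = 0.00298), -5.82 for the serine protease HTRA1 (adjusted p = 0.000644) and -5.54 for the aggrecanase ADAMTS4 (adjusted p = 0.000353). ADAMTS20, a versican-cleaving protease, was higher, at 2.94 to 9.03 FPKM in piPSCs and up to 0.285 in PEFs (log2 fold change 2.31, adjusted p = 0.00344). Over all 10 pathway lists, 49 of 89 tested genes were lower and 2 were higher, against 16.7% and 20.2% of all genes tested.

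**Figure D5:**
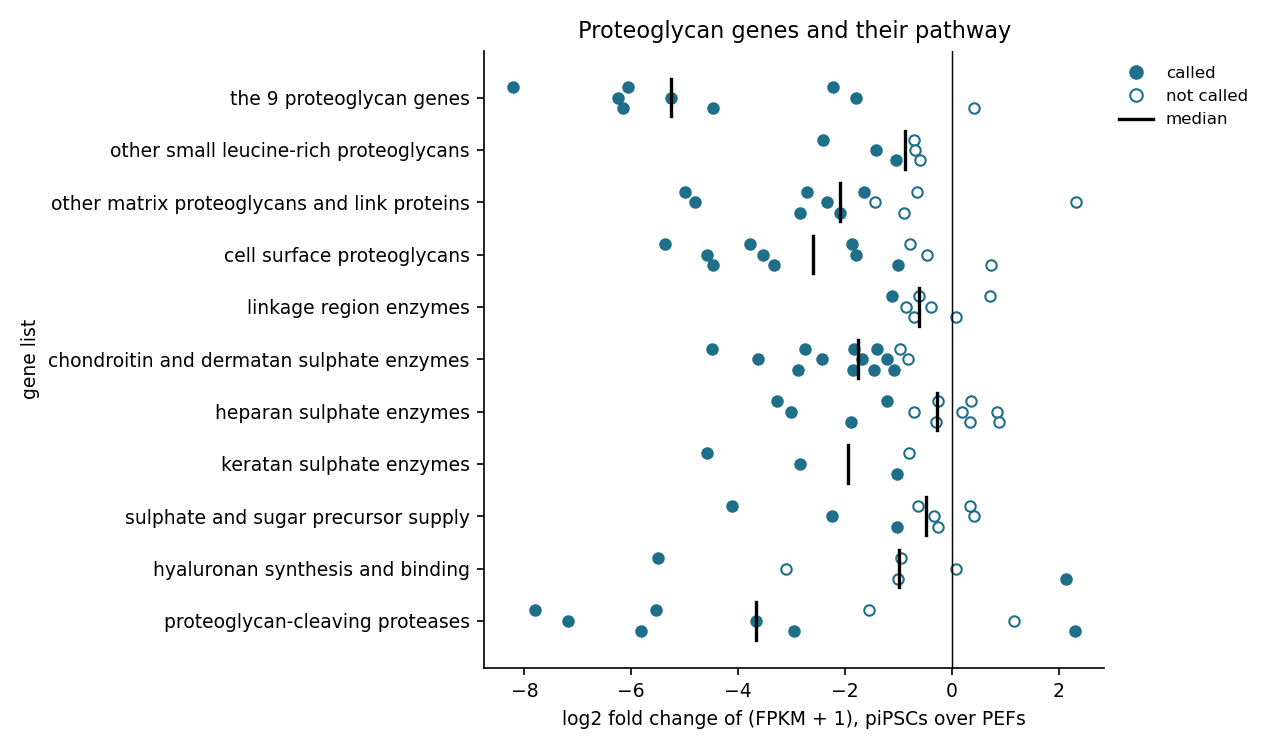
Log2 fold change of (FPKM + 1) in piPSCs over PEFs for each tested gene of the 9 proteoglycans and of the 10 pathway lists, filled where called and open where not, with the median of each list as a black line. The medians run from -5.25 for the 9 proteoglycan genes to -0.28 for heparan sulphate enzymes.

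The genes whose profile over the 6 libraries lay closest to the per-library median of the 9 genes, as the Euclidean distance of centred log2(FPKM + 1) among 11403 named genes, were CPZ (0.585), SGCD (0.602), SCARF2 (0.883), FAM180A (0.924) and ITGB5 (0.953). CPZ, a secreted carboxypeptidase, was at 37.6, 84.2 and 24.8 FPKM in PEF5, PEF7 and PEF8 and at 1.72, 0.0390 and 0 FPKM in piPSC5, piPSC7 and piPSC8. SGCD encodes a sarcoglycan of the cell membrane, and ITGB5 an integrin subunit. In all 5, PEF7 was the highest library and piPSC5 the highest of the piPSCs, as in the median profile by which they were picked.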

How the data were processed

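RNA of 3 PEF lines and the 3 piPSC lines made from them was analysed as 1 poly-A library per line, read from both ends over 150 bp. The authors deposited FPKM values per gene. The submitters' processing notes name HISAT2 2.1.0, Bowtie2 2.2.3, HTSeq 0.6.0 and Sscrofa11.1 without their roles, and counting by strand is not given in the sources used here, so reads of overlapping genes cannot be told apart. Of 13193 symbols shared with the RefSeq annotation of Sscrofa11.1, 99.8% lay at overlapping positions. Library totals and gene lengths were inferred from the FPKM values themselves. The totals came from short RNA genes and were 11010629 to 17836510. For each gene the shortest length that gave whole fragments in its libraries was taken, within a relative tolerance of 2e-09. Whole fragments were reached for all 18007 genes (100%), which is not an independent check of the lengths. Intervals (95%, Poisson) and the limit of 3 fragments for a count of 0 cover counting error only.

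The groups were compared with limma 3.58.1 in R 4.3.3 (trend, not robust, two-sided) on log2(FPKM + 1), which understates the change of low genes, for the 12428 genes that averaged 0.5 FPKM or more over the libraries. A call needed a Benjamini-Hochberg adjusted p below 0.05 together with a change of 2-fold or more. An exact permutation test of 3 against 3 cannot give a p under 0.1, so none was run. Python 3.11.15 with pandas 2.3.3 and numpy 2.4.6 gave levels, shares and distances, and sequences came from the RefSeq genome. The window upstream of DCN is not reported here.

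The piPSC line of a number was made from the PEF line of that number, which pairs the libraries by animal. Within lines 5, 7 and 8 the deviations of the PEF and the piPSC library from their group mean had correlations of 0.0921, 0.0946 and 0.0800, and between lines of -0.121 to 0.0553. The study's statistics section names an unpaired test without tying it to expression, and its expression comparison sets each piPSC line against its own PEF line. The libraries were not paired in the fit used here, and the line as a replicate block was an alternative. The others were a pseudocount of 0.1, no filter, a mean FPKM of at least 1, 3 rescalings, no trend, voom on fragments, and each library left out. Leaving out line 8 and using RefSeq lengths were chosen after seeing the data.

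The genes, the lists and the tests were chosen with earlier results of these data known. By rule, the text names the 10 proteoglycan genes, up to 4 called genes of each list in each direction by size of change, the 5 nearest profiles and listed neighbours on the chromosome. SDC1, PAPSS1, HAPLN1, ACAN, BCAN, NCAN and the marker genes were picked after their values were seen. Accessibility, methylation and the 2 piPSC lines from earlier work were not analysed here.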

Additional observations from a re-analysis of the deposited data

Results flagged for a closer look

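OGN moved in different directions in the 3 lines. Its log2 ratio of (FPKM + 1), piPSC over PEF, was 1.02 in line 5 and 0.55 in line 7, and -0.33 in line 8. With 1 library per line and group the difference between lines was not tested.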

How the results depend on the processing

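All 9 proteoglycan genes kept their direction under each of the alternatives that could be computed for them. Between 6 and 8 of the 9 were called, and of 143 fits of single genes 134 stayed on the same side of the thresholds. The 9 that did not were 8 for VCAN and 1 for PRELP (voom), and the causes were not tested. With the line as a replicate block, 8 of 9 proteoglycan genes and 48 pathway genes were called, against 8 and 51 without it, so the pairing changed no proteoglycan call. Leaving out 1 library at a time gave 7 to 8 proteoglycan genes and 43 to 49 pathway genes. Rescaling to the median ratio gave 56 pathway genes and rescaling to an equal sum 62. Of the named pathway genes, 7 (CHAD, PODNL1, ESM1, SPOCK3, B4GALT1, UXS1 and HMMR) lost their call in 23 fits, and 503 fits left the call as it was. Counted in fragments rather than FPKM, the 9 genes made up 0.847% of PEF libraries and 0.0158% of piPSC libraries, and the cause was not tested. A mean FPKM of at least 1 left OGN out. At 2 to 100 fragments per gene in several piPSC libraries, ratios between those libraries are imprecise.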
